A study of Mus musculus with 6 samples.

Results

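Killer lymphocytes were followed here through 8 genes, Gzma, Gzmb, Gzmk, Prf1, Nkg7, Il2rb, Klrd1 and Klrk1, in mouse kidneys whose ureter had been tied. The genes were taken by name from the array's annotation, by a rule that uses no measured value, although the list of names was drawn up with earlier results of these data known. They are carried by 10 of the 41174 probes of the array and make up 8 of the 19598 genes tested. The data are 6 single-colour Agilent arrays, 1 for each kidney of 3 mice of the outbred CD-1 stock, named 495, 485 and 512 in the labels. In the ligated group (n = 3) the left ureter had been completely tied, which is unilateral ureteral obstruction, a model of renal fibrosis. The contralateral group (n = 3) holds the right kidneys, whose ureter was not tied, from those same animals, and the series text uses them as the internal control. Both groups therefore share the operated animal, and no kidney of an unoperated mouse is among them. Sex, age and the time between ligation and sampling are not given in the sources used here. The labels call the material kidney in 1 field and primary cells in others. Markers of kidney tubules and podocytes were above background on all 6 arrays for 9 of 9 genes on the list, and markers of all leukocytes for 6 of 6.

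Natural killer cells and cytotoxic T cells kill by releasing granules onto a target cell. Perforin opens the target's membrane, and granzymes, a family of serine proteases, enter through it and start cell death. Surface receptors decide whether a target is attacked, and interleukin 2 and interleukin 15 keep the killer cells alive and armed. In an obstructed kidney, T cells and natural killer cells are among the leukocytes known to enter the interstitium. Each array read the RNA of a whole sample, so more cells of a type and more RNA per cell cannot be told apart.

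The promoters of 3 of these genes are shown because they hold most kinds of short letter strings that were searched. RefSeq (GRCm38.p6) gave a promoter for 6 of the 8 genes, Gzma, Gzmb, Gzmk, Prf1, Nkg7 and Klrk1. Each window holds 300 bases, 250 before and 50 after the start of the gene, read 5′ to 3′ on the gene's strand. Capitals mark matches to core motifs of factor families that act in lymphocytes.
Gzmb: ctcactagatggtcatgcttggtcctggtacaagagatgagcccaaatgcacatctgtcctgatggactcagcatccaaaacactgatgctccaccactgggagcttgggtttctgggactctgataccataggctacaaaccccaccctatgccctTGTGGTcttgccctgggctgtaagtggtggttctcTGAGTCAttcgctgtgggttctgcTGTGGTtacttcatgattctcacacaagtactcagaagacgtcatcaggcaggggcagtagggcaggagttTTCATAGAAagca
Gzmk: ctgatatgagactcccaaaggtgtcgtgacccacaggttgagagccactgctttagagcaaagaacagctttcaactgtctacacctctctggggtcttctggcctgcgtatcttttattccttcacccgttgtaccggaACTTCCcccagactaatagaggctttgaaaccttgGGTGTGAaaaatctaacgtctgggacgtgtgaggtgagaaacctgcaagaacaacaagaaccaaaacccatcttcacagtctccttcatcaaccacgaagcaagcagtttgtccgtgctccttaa
Nkg7: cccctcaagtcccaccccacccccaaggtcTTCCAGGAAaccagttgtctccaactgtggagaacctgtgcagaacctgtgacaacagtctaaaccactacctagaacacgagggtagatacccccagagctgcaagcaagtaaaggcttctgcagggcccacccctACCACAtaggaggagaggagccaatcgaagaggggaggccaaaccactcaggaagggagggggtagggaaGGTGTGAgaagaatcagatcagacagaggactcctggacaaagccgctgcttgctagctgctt
These windows lie at chr14:56262285-56262584 on the minus strand for Gzmb, chr13:113180916-113181215 on the minus strand for Gzmk and chr7:43436888-43437187 on the plus strand for Nkg7. The strings were searched on both strands and were chosen after the promoters had been seen. The Runx core TGTGGT was present in 5 of the 6 promoters (all but that of Gzmk), against 16.8% of all 32851 promoters in the table. The T-box core GGTGTGA was present in those of Gzmk and Nkg7, 2 of 6, against 3.98% of all. The Ets core GGAAGT occurred in 2 of 6 (Gzmk and Prf1) against 23.8%, the STAT core TTCNNNGAA in 2 of 6 (Gzmb and Nkg7) against 8.30%, and the AP-1 core TGANTCA in 2 of 6 (Gzmb and Klrk1) against 7.81%. The cAMP response element TGACGTCA was found in 0 of 6, against 1.79% of all promoters. No matches of different motifs overlapped in the 3 windows shown. A match describes letters in these windows and was not tested as a binding site.

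Array probes of 60 bases carried the measurements. A few are shown so that the stretch of transcript each value refers to can be seen, and their positions are those the array files give in the mm8 build.
Gzma: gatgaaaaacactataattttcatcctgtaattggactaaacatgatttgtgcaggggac
Gzmk: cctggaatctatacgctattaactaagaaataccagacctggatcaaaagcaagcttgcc
Prf1: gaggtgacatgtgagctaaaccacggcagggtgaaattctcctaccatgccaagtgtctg
Nkg7: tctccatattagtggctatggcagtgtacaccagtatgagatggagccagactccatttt
Klrd1: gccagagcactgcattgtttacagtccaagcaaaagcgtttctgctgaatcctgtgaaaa
Gzma and Gzmk are neighbours on chromosome 13, with their probes at chr13:114216656-114216715 and chr13:114292770-114292829. The probe of Prf1 lies at chr10:60699137-60699196, that of Klrd1 at chr6:129564066-129564125 and the Nkg7 probe shown at chr7:43305698-43305757. Klrk1 shares chromosome 6 with Klrd1, and its tested probe covers 290 bases of the genome, from 129578157 to 129578446. Gzmb was read at chr14:55213150-55213209 and Il2rb at chr15:78307934-78307993. The sources used here do not assign these probes to exons.

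All 8 genes were higher in the ligated kidney than in the contralateral kidney in each of the 3 mice, and 7 of them passed the threshold, with 0 lower. In the same limma test with Benjamini-Hochberg adjustment over all genes, 16.0% of the genes were called higher at an adjusted p under 0.05, and 14.7% were called lower. In all 8 genes the 3 ligated values lay above all 3 contralateral values, which held for 24.7% of the genes tested, and 34.3% of all genes were higher in the ligated kidney of every mouse. All 8 passed the filter on dim probes: a gene was tested when its probe was above background on each of the 3 arrays of a group, ligated or contralateral. Of the 8, 4 (Gzma, Nkg7, Il2rb and Klrd1) were above background on all 6 arrays. The other 4 (Gzmb, Gzmk, Prf1 and Klrk1) were above background on no more than 1 contralateral array and passed the filter only through the ligated group, so for these the filter itself favours a higher ligated value, and the counts over all 8 describe the genes and support nothing further. The median log2 fold change of the 8 was 2.33, beside -0.01 over all genes, given likewise as a description.

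**Figure D1:**
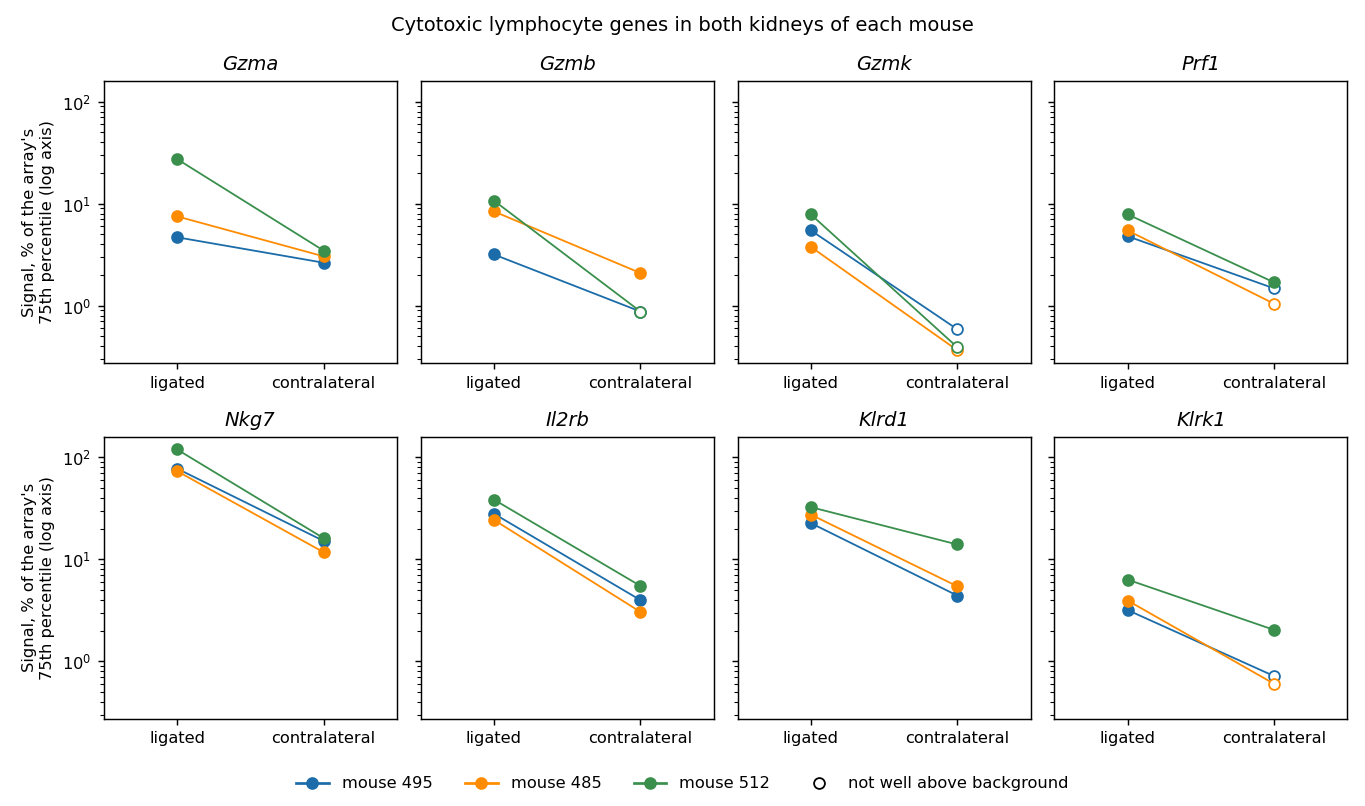
Level of each gene in both kidneys of each mouse, as percent of the array's 75th percentile of signal on a log axis, with the ligated kidney at the left. Each line joins the 2 kidneys of 1 mouse, and open circles mark probes not well above background. Every line falls towards the contralateral kidney, and the open circles are all contralateral.

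The levels below are signals as percent of the 75th percentile of signal on the same array, given in the order of mice 495, 485 and 512. They describe 1 probe each and are compared between kidneys, not between genes. Log2 fold changes are ligated minus contralateral, ± SE, with n = 3 mice. A fold written "at least" is a bound, given where a probe was not well above background on some or all contralateral arrays. For the bound, a contralateral value under the dimmest detected probe of its array was replaced by the value of that dimmest probe.

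Granzymes, the proteases of the granule, differed in how evenly the mice shared the change. Gzma encodes granzyme A, which cuts after basic residues. It stood at 4.69, 7.52 and 27.4% in ligated kidneys, against 2.64, 3.05 and 3.47% in contralateral kidneys. The ligated kidney of mouse 512 stood far above the other ligated kidneys, while the contralateral values lay close together. Gzma was 3.26-fold higher (log2 fold change 1.70 ± 0.48), and limma's adjusted p of 0.0618 did not pass; its contralateral signal lay close to the local background. Its log2 differences were 0.83, 1.30 and 2.98 in the 3 mice. Without mouse 512 the value was 1.07, and it passed (adjusted p = 0.0152).

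Gzmb encodes granzyme B, which cuts after aspartate and activates caspases. Its levels were 3.18, 8.40 and 10.7% in ligated kidneys, against 0.877, 2.09 and 0.877% in contralateral kidneys, of which only that of mouse 485 was above background. The lowest ligated value, in mouse 495, was above the highest contralateral one. Gzmb rose at least 4.07-fold (2.49 ± 0.42, adjusted p = 0.0308 in limma), with log2 differences of 1.86, 2.01 and 3.61.

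Gzmk encodes granzyme K, a trypsin-like granzyme. It reached 5.48, 3.78 and 7.86% in ligated kidneys and 0.587, 0.366 and 0.391% in contralateral kidneys, where it was above background on 0 of 3 arrays. The groups stood well apart, but the lower side is only a limit of detection. Gzmk rose at least 3.62-fold (3.64 ± 0.28, adjusted p = 0.0221 in limma), with log2 differences of 3.22, 3.37 and 4.33. Mouse 512 had the largest of the 3 differences for each of Gzma, Gzmb and Gzmk.

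The relatives of these granzymes were mostly undetected. Of 7 other granzyme genes, all on the array, 2 passed the filter, 1 of them rose and 0 fell, with a median of 0.76. Gzmd rose at least 4.26-fold (2.11 ± 0.26, adjusted p = 0.0241), above background on 2 contralateral arrays, and at 0.68 with normexp background correction it did not pass (adjusted p = 0.0644). Gzmm, picked out because it was the other gene tested, had a value of -0.58 ± 0.29 (adjusted p = 0.182). Gzmc, Gzme, Gzmf, Gzmg and Gzmn were above background on 0 of 6 arrays. Gzmc, Gzmd, Gzme, Gzmf and Gzmg are closely related in sequence, so their probes may share signal.

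Perforin and Nkg7 serve the granule itself. Prf1, the gene of the pore-forming protein perforin, stood at 4.79, 5.47 and 7.85% in ligated kidneys, against 1.48, 1.04 and 1.69% in contralateral kidneys. Among the contralateral kidneys it was above background in that of mouse 512 only. Prf1 rose at least 3.58-fold (2.10 ± 0.20, adjusted p = 0.0221 in limma), with log2 differences of 1.70, 2.39 and 2.22.

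Nkg7 encodes a granule membrane protein needed for granule release. It was measured by a pair of probes, both above background on all 6 arrays. The probe with the higher mean, at chr7:43306032-43306091, read 77.5, 73.2 and 119.3% in ligated kidneys, against 15.1, 11.7 and 16.1% in contralateral kidneys. Nkg7 rose 6.19-fold on this probe (2.63 ± 0.17, adjusted p = 0.0221 in limma), with log2 differences of 2.36, 2.64 and 2.89. The other probe, shown above, read 31.8, 31.1 and 50.1% in ligated kidneys and 5.35, 3.22 and 5.62% in contralateral kidneys. In the fit over probes, where 15.3% of 29093 probes were called higher, it rose 7.99-fold (3.00 ± 0.20, adjusted p = 0.0223). The 2 probes moved the same way in every mouse.

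Among the genes that pack, activate and release granule proteins, 5 of 12 rose and 3 fell, at a median of 1.33. Cst7, an inhibitor of the granzyme-activating protease, rose at least 5.58-fold (2.65 ± 0.24), the lymphocyte cathepsin gene Ctsw 5.06-fold (2.34 ± 0.20), and Ctsc, which encodes the protease that activates granzymes, 4.30-fold (2.11 ± 0.29). Ctsc and Cst7 are also made by myeloid cells. Lamp1, Vamp7 and Stxbp2, named after their values were seen, fell by 0.97, 0.63 and 0.58 on the log2 scale. They serve lysosomes and membrane fusion in most cell types, and their falls were not called under quantile normalization, spike-in centring or an unfiltered fit (0 lower in each). Of the 4 granzyme inhibitors tested out of 5, 1 rose and 0 fell, at a median of 1.28. It was Serpinb6b (3.70-fold, 1.89 ± 0.42, adjusted p = 0.0418).

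Il2rb encodes the beta chain shared by the receptors of interleukin 2 and interleukin 15. Its levels were 28.0, 24.3 and 38.4% in ligated kidneys, against 3.98, 3.04 and 5.48% in contralateral kidneys. Both groups were above background throughout, and mouse 512 was highest in each. Il2rb rose 7.33-fold (2.87 ± 0.14, adjusted p = 0.0221 in limma). Its log2 differences of 2.81, 3.00 and 2.81 were the most even of the 8 genes, with an SD of 0.108 over the mice, against 1.13 for Gzma.

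Of 11 partners, ligands and signalling genes of Il2rb, 4 rose and 0 fell, at a median of -0.07, which became 0.29 with quantile normalization (4 rose and 1 fell) and 0.28 when arrays were centred on spike-in spots. When arrays were centred on their median it was -0.38, and 3 rose and 3 fell. Il2rg, the common gamma chain, rose 6.00-fold (2.58 ± 0.19), the feedback inhibitor gene Socs1 3.81-fold (1.93 ± 0.21) and the alpha chain gene Il2ra at least 1.32-fold (1.35 ± 0.19), the last above background on 0 contralateral arrays and at -0.24 with normexp. The ligand genes, named after their values were seen, did not pass: Il15 was at -1.01 ± 0.30 (adjusted p = 0.0696) and Il2 at -0.63 ± 0.16 (adjusted p = 0.0529).

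Klrd1 and Klrk1 encode lectin-like receptors of killer cells. Klrd1, or CD94, pairs with NKG2 proteins and reads a nonclassical class I molecule. It stood at 22.6, 27.4 and 32.4% in ligated kidneys, against 4.40, 5.43 and 14.0% in contralateral kidneys. The contralateral kidney of mouse 512 stood above the other contralateral kidneys but below every ligated one. Klrd1 rose 3.92-fold (1.97 ± 0.30, adjusted p = 0.0283 in limma), with log2 differences of 2.36, 2.34 and 1.22.

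Klrk1, or NKG2D, is an activating receptor for stress-induced ligands. Its tested probe read 3.17, 3.93 and 6.31% in ligated kidneys, against 0.714, 0.600 and 2.03% in contralateral kidneys, of which only that of mouse 512 was above background. Klrk1 rose at least 2.44-fold (2.17 ± 0.26, adjusted p = 0.0233 in limma), with log2 differences of 2.15, 2.71 and 1.64. A second probe, at chr6:129577539-129577598, was above background on 0 of 6 arrays and was not tested.

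The partners, adaptors and ligands of these receptors are named on a list of 15 genes, of which 9 were on the array and 6 tested, and 4 rose and 0 fell, at a median of 2.07. Klrc2, an NKG2 partner of Klrd1, rose at least 4.35-fold (3.14 ± 0.22), read by a probe above background on 0 contralateral arrays. The signalling adaptor genes Tyrobp and Hcst rose 7.44-fold (2.90 ± 0.41) and 3.75-fold (1.91 ± 0.18), and Tyrobp is also an adaptor of macrophages. Klrc1 was above background on 0 of 6 arrays. The Klrk1 ligand genes Ulbp1 and Raet1a, named after their values were seen, were at 2.23 ± 0.87 (adjusted p = 0.114) and 1.45 ± 0.66 (adjusted p = 0.153). With normexp the median of the list was 0.63, and Klrc2 was at 0.47 and not called (adjusted p = 0.118).

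**Figure D2:**
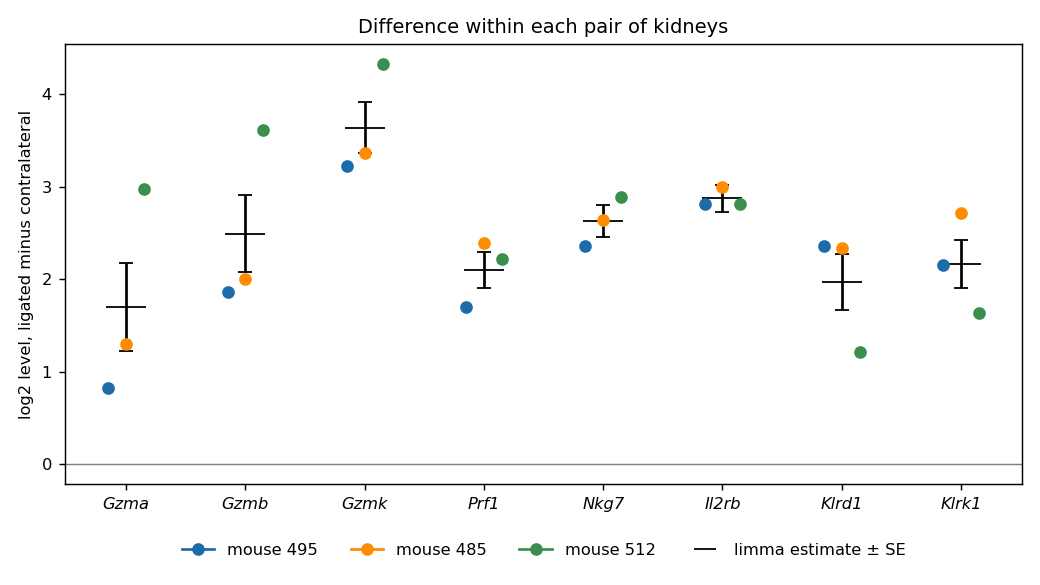
Log2 difference, ligated minus contralateral, within each mouse (coloured points) for each gene, with the limma estimate and its SE as a horizontal line and bar. All 24 points lie above 0, the 3 points of Il2rb nearly coincide, and those of Gzma run between 0.83 and 2.98.

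The mice differed in opposite ways for different genes. Mouse 512 had the largest difference for 4 genes (Gzma, Gzmb, Gzmk and Nkg7) and the smallest for 3 (Il2rb, Klrd1 and Klrk1). Over the 8 genes, the median difference of mouse 495 was 2.25, that of mouse 485 was 2.52 and that of mouse 512 was 2.85. The contralateral kidney of mouse 512 was above both other contralateral kidneys for 6 of the 8 genes. Against the mean of those 2, it differed by 1.63 on the log2 scale for Klrk1 and 1.51 for Klrd1, but by 0.29 for Gzma, -0.24 for Gzmk and -0.63 for Gzmb. The ligated kidney of mouse 512 differed from the other ligated kidneys by 2.21 for Gzma and 1.05 for Gzmb, and by 0.38 for Klrd1 and 0.84 for Klrk1. Whether these differences between mice exceed chance was not tested.

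Depth and background set limits on these values. The 75th percentile of signal was 1362, 1432 and 1068 on the ligated arrays, against 740.3, 670.7 and 1106 on the contralateral arrays. The median spot was 5.59, 6.35 and 5.54 times its local background on ligated arrays and 3.09, 2.70 and 4.99 times on contralateral ones. For Nkg7 the spot mean was 28.8 to 46.0 times its local background on ligated arrays and 2.50 to 6.93 times on contralateral arrays. For Klrk1 it was 1.88 to 3.27 times on ligated arrays and 0.758 to 1.81 times on contralateral arrays. Gzmb, Gzmk and Prf1 were as dim, at 2.07 to 4.34, 2.75 to 3.53 and 2.57 to 3.71 times on ligated arrays, and at no more than 1.41 times on contralateral arrays. Gzma, flagged above background on all arrays, was at 2.44 to 10.8 times on ligated arrays and 1.05 to 1.61 times on contralateral arrays. With normexp, a background correction that by its construction shrinks differences of dim probes, 3 of the 8 genes were called (Nkg7, Il2rb and Klrd1), where 10.2% of all genes were called higher. Nkg7 was at 2.14 (adjusted p = 0.0146), Il2rb at 1.65 (0.0156) and Klrd1 at 1.07 (0.0182). The other 5 stayed positive and were not called, with Gzma at 0.56, Gzmk at 0.42, Gzmb at 0.38, Prf1 at 0.27 and Klrk1 at 0.06.

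**Figure D3:**
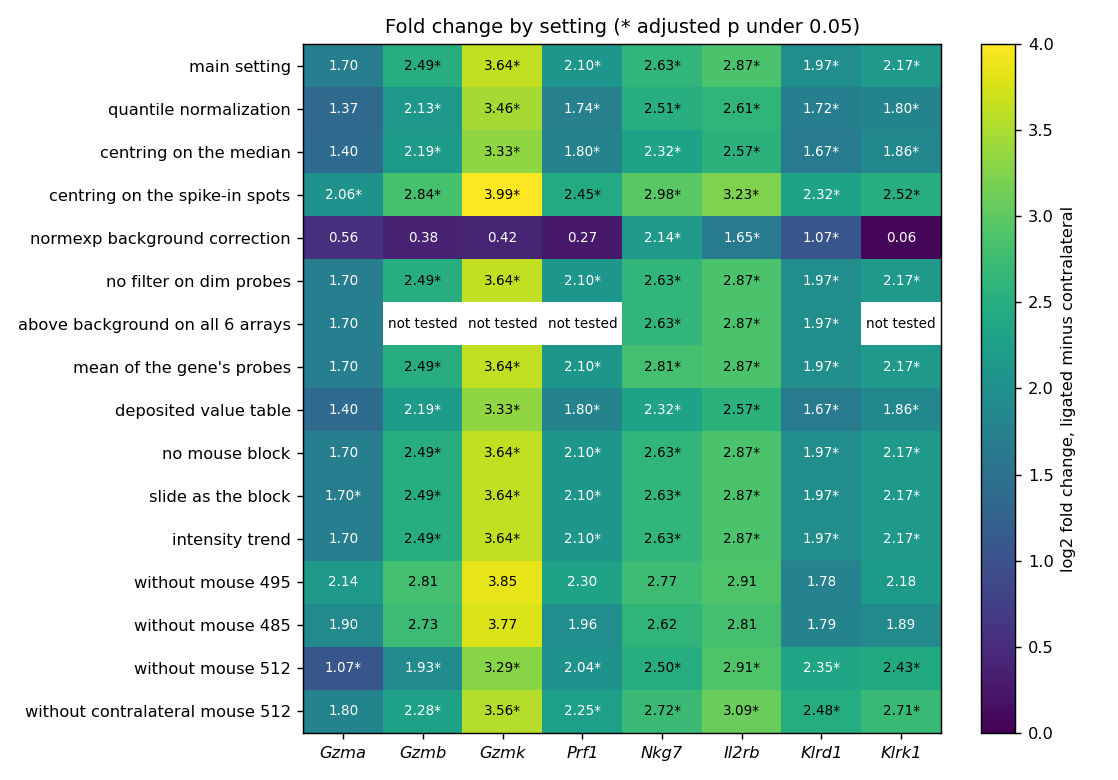
Log2 fold change of each gene (columns) under each processing setting (rows), with an asterisk where the adjusted p was under 0.05. Every value is positive, the normexp row has the lowest values for each gene, and the rows without mouse 495 and without mouse 485 have no asterisk.

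Leaving out a mouse changed the calls in different directions. Without mouse 495 or without mouse 485, 0 of the 8 genes and 0 of all genes passed in limma, while 4949 and 4952 genes were under 0.05 before adjustment, against 9833 from the full set of arrays. The adjusted p of the 8 genes was then between 0.117 and 0.203. Without mouse 512, 8 of 8 were called, and so were 27.3% of all genes in the higher direction. Without the contralateral kidney of mouse 512 alone, a setting added after the data were seen, 7 were called beside 26.3% of all genes, and Klrd1 was at 2.48 and Klrk1 at 2.71. Mice 495 and 485 shared slide 1 and mouse 512 was on slide 2, so the fit without mouse 512 is also the fit within slide 1, and slide 2 holds a single pair. With slide in place of mouse as the block, 8 of 8 were called beside 18.3% of all genes, Gzma at an adjusted p of 0.0380. Centring on spike-in spots also called 8 of 8, beside 12.3% of all genes, and a fit that ignores the mice called 7, beside 14.0%. When a probe had to be above background on all 6 arrays, 3 of the 4 genes left were called, beside 14.1%. A sign-flip permutation over 3 pairs cannot give a two-sided p below 0.25, so no such test of a single value was made.

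Killer cells also act through cytokines and death ligands, and all 10 genes on that list rose, at a median of 2.74, beside 16.0% of all genes called higher. Of the 10, 4 were above background on all 6 arrays, and these 4 rose at a median of 1.92. The rest passed the filter only through the ligated group, which favours a higher ligated value. Ccl5, a chemokine, rose 10.3-fold (3.36 ± 0.80, adjusted p = 0.0468), the chemokine gene Ccl3 at least 8.04-fold (3.32 ± 0.37) and Tnf at least 7.20-fold (3.09 ± 0.57). Macrophages also make Ccl3 and Tnf. The lymphocyte products Ifng and Fasl, named after their values were seen, rose at least 3.38-fold (2.85 ± 0.22) and at least 2.80-fold (2.63 ± 0.16), read by probes above background on 1 and 0 contralateral arrays. A second Fasl probe was at 0.06 ± 0.38. With normexp 5 of the 10 were called at a median of 0.74, and Ifng and Fasl were not among them, at 0.38 and 0.11.

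Of 9 transcription factor genes of cytotoxic lymphocytes tested out of 10, 6 rose and 0 fell, at a median of 1.98 (1 fell when arrays were centred on their median). Stat4, which relays interleukin 12 signals, rose 6.11-fold (2.61 ± 0.20). Its probe was above background on 2 contralateral arrays. The replacement used for bounds left its fold unchanged, so 6.11 is an estimate and not a bound. Prdm1 (Blimp-1) rose 4.14-fold (2.05 ± 0.15) and Tbx21 (T-bet) 4.08-fold (2.03 ± 0.18). Runx3, Tox and Eomes, named after their values were seen, rose as well (2.02 ± 0.21, 1.98 ± 0.24 and 1.40 ± 0.17), although a second Runx3 probe was at -0.03 ± 0.19. Eomes was above background on 0 contralateral arrays. With normexp 4 of the 9 were called, at a median of 0.72.

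The genes are made by more than 1 cell type, so markers of each were read beside them. Of 14 T cell markers, 9 rose and 1 fell, at a median of 2.56, which was 1.04 with normexp. The receptor complex genes Cd247, Cd3d and Cd3g rose at least 6.58-fold (3.34 ± 0.41), 8.92-fold (3.16 ± 0.19) and 8.51-fold (3.09 ± 0.25). A second Cd247 probe was at 1.73 ± 0.52 and did not pass (adjusted p = 0.0696 over probes in limma). Cd3e, of the same complex, was above background on 3 ligated and 3 contralateral arrays and did not pass, at 0.46 ± 0.25 (adjusted p = 0.212 in limma). The marker that fell was Cd8b1, a chain of the CD8 co-receptor, at -1.59 ± 0.33 (adjusted p = 0.0380), but its 2 probes disagreed, and the other one stood at 3.15 ± 0.17 (adjusted p = 0.0223 over probes). Cd8a was at 1.20 ± 0.36 (adjusted p = 0.0690 in limma). Its other probes were at 1.64, which passed over probes (adjusted p = 0.0259), and at 1.45, which did not (adjusted p = 0.0842). Cd4 was at 0.08 ± 0.18. Cd3e, Cd8b1, Cd8a and Cd4 were named after their values were seen, and each was represented, by rule, by its brightest probe on average.

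Of 17 natural killer cell markers, 14 were on the array and 7 tested, and 4 rose and 0 fell, at a median of 2.23. Klrg1, Klrb1b and Klrb1a rose at least 2.24-fold (3.05 ± 0.18), at least 7.03-fold (2.99 ± 0.38) and at least 5.97-fold (2.78 ± 0.42). The defining marker Ncr1 was above background on 2 ligated arrays and 0 contralateral arrays, which left it untested. Klra3, Klra8, Klra9 and Klri2 were above background on 0 of 6 arrays, and Klra and Klrb1 genes belong to families of similar sequence. Klrb1c, named after its value was seen, was above background on 3 ligated and 3 contralateral arrays, at -0.21 ± 0.40 (adjusted p = 0.688 in limma). Cd226 and Cd244a, also named after their values were seen, did not pass on their brightest probes, at 0.50 ± 0.42 and 1.69 ± 0.52. Dimmer Cd226 probes at 2.60, 3.02 and 2.57 passed over probes (adjusted p = 0.0241, 0.0254 and 0.0223 in limma). A dimmer Cd244a probe at 1.03 passed too (adjusted p = 0.0307). With the mean of each gene's probes, 6 of the 7 were called higher. When a probe had to be above background on all 6 arrays, 2 markers were tested and 0 rose, at a median of 0.74. With normexp the median of the 7 was 0.27 and 2 were called, and Klrg1 was at 0.14 and not called (adjusted p = 0.592 in limma). The summed signal of the tested markers was 64.2 to 110.0% of the 75th percentile in ligated kidneys, against 16.1 to 48.1% in contralateral kidneys.

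Markers of other cells that can make granzymes were read too. Of 12 mast cell markers, 5 were tested, and 2 rose (Hdc, 1.94 ± 0.25, and Kit, 1.33 ± 0.30) and 0 fell, at a median of 1.24, which was 0.08 with normexp with 2 called. The protease and receptor genes Mcpt1, Mcpt2, Tpsab1 and Ms4a2 were above background on 0 of 6 arrays, and Cpa3 on 1 ligated array. Of the other defining genes, the protease gene Mcpt4 was above background on 3 ligated and 2 contralateral arrays (0.27 ± 0.46, adjusted p = 0.656), Cma1 on 3 ligated and 0 contralateral arrays (1.24 ± 0.63, adjusted p = 0.188) and the receptor gene Fcer1a on 2 and 1. Tpsb2 was above background on 1 ligated array. These genes were named after their values were seen. The summed signal of the 5 tested markers was 163.8 to 257.1% in ligated kidneys and 117.2 to 144.7% in contralateral kidneys. Of 6 plasmacytoid dendritic cell markers, 5 rose and 0 fell at a median of 1.41, led by Irf8 (2.12 ± 0.32), Bst2 (1.94 ± 0.35) and Siglech (1.86 ± 0.31). Siglech was above background on 0 contralateral arrays, so that it rose at least 1.43-fold, and it was at -0.13 with normexp, where the median of the list was 0.52 and 3 were called. The summed signal of this list was 1537 to 1609% in ligated kidneys and 349.1 to 677.4% in contralateral kidneys. It came mostly from Irf8, Bst2 and Tcf4, at mean log2 levels of 2.84, 2.58 and 1.04 in ligated kidneys, and Siglech, at -5.53, added little. Whether these 3 genes were read from plasmacytoid dendritic cells was not tested. Of 6 B cell markers, 2 rose (Cd22, 3.08 ± 0.43, and Cd79b, 2.27 ± 0.35) and 0 fell, at a median of 2.17, which was 0.75 with normexp with 1 called. They had a summed signal of 150.7 to 701.3% in ligated kidneys and 35.1 to 77.2% in contralateral kidneys. The part of these cells in the results was not tested.

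**Figure D4:**
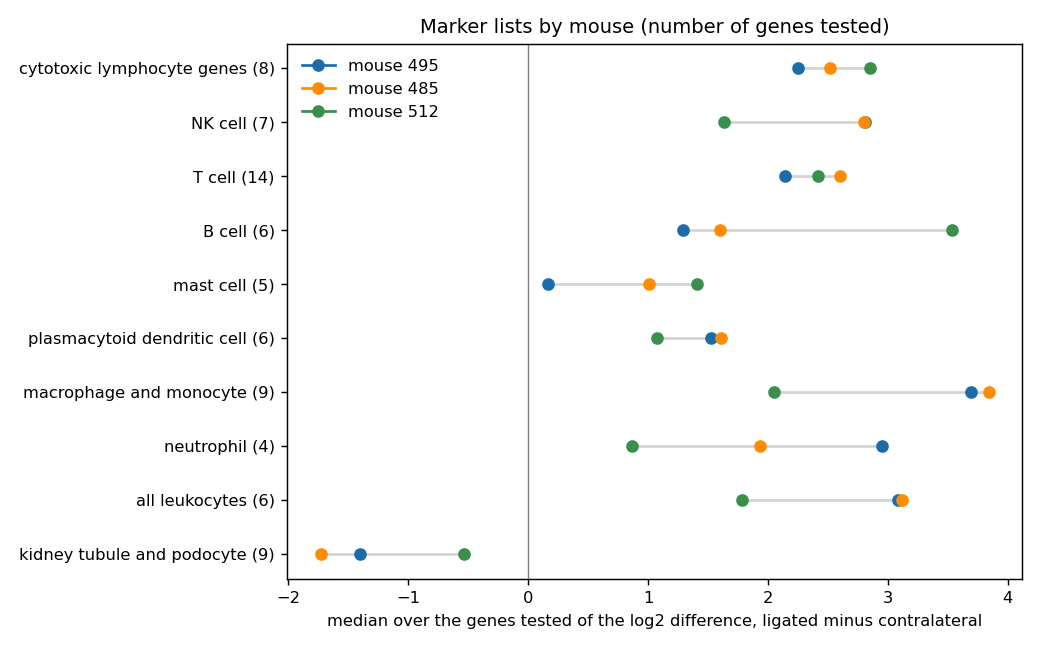
Median over the genes tested of the log2 difference, ligated minus contralateral, in each mouse (points) for the 8 genes and for each marker list, with the number of genes tested in parentheses. Macrophage markers lie at 3.69, 3.85 and 2.05 in mice 495, 485 and 512, and the 8 cytotoxic genes at 2.25, 2.52 and 2.85.

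Leukocyte markers as a whole were also higher in ligated kidneys. All 6 markers shared by leukocytes rose, at a median of 2.63, with Cd53 at 3.10 ± 0.40, Cd52 at 2.89 ± 0.34 and Laptm5 at 2.65 ± 0.44. Their summed signal was 3264 to 4995% in ligated kidneys, against 332.8 to 1383% in contralateral kidneys. Of 9 macrophage and monocyte markers, 8 rose and 0 fell, at a median of 3.15, led by Mrc1 (3.61 ± 0.58), Adgre1 (3.42 ± 0.48) and C1qa (3.40 ± 0.33), with a summed signal of 20947 to 24289% in ligated kidneys and 1731 to 8894% in contralateral kidneys. Of 4 neutrophil markers tested out of 6, 2 rose (Csf3r, 2.70 ± 0.37, and S100a8, 1.99 ± 0.42) and 0 fell, at a median of 1.92, and their summed signal was 175.0 to 1060% in ligated kidneys and 106.3 to 211.4% in contralateral kidneys. The T cell sums were 707.8 to 980.5% in ligated kidneys and 466.5 to 1820% in contralateral kidneys. Bright probes weigh most in these sums. Among them, though not the brightest of the T cell list, is the Cd8b1 probe that fell. Its mean log2 levels were 0.11 in ligated and 1.69 in contralateral kidneys, while the other Cd8b1 probe rose. The T cell sums therefore do not follow the number of markers that rose. Of 9 tubule and podocyte markers, 0 rose and 4 fell, at a median of -0.95, among them Aqp2 (-2.88 ± 0.15), Lrp2 (-2.25 ± 0.47) and Slc12a3 (-1.84 ± 0.43). The number that fell was 2 with quantile normalization (median -0.52) and 1 in an unfiltered fit. It was 4 with spike-in centring (median -0.60) and 5 when arrays were centred on their median (median -1.26).

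The order of the mice was not the same in these lists. In mice 495, 485 and 512 the median difference was 3.09, 3.12 and 1.79 for markers of all leukocytes, and 2.81, 2.80 and 1.63 for natural killer cell markers. It was 2.15, 2.60 and 2.42 for T cell markers and 1.29, 1.60 and 3.54 for B cell markers. The difference between lists in the order of the mice was not tested.

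Across the 6 arrays, 791 of the 19590 other genes followed the 8 genes with a Pearson r of at least 0.95, measured against the mean of the 8 after each was centred on its own mean. The 5 most alike were Kirrel3, a cell adhesion gene (0.999), the kinase gene Pak3 (0.997), 5830432E09Rik and Fam89a (0.996 each) and Iffo2 (0.995). These r values describe 6 arrays of 3 mice that share the split between ligated and contralateral kidneys, and any gene with an even difference between the groups scores high. Kirrel3 had a log2 fold change of 2.37 and Pak3 of 1.06.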

How the data were processed

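Per the labels' protocols, RNA was hybridised as Cy3-labelled cRNA. For each array the authors deposited the scanner's output. Its processed signal is an intensity on a linear scale from Agilent Feature Extraction, which subtracted background and removed spatial trend, per the file headers, and arrays were not scaled to each other. Raw intensities, per the file headers, are the mean of each spot and the median of its local background, and the flags are scores of 0 or 1, per the file headers. The headers name version 10.5.1.1 and the submitters' processing notes 9.1, which was not resolved. The authors also deposited a value table, a linear ratio that equalled the processed signal over the median of its array (99% of spots within 0.00289%).

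Control spots and outlier spots were removed, and 24 probes with an outlier spot were dropped. A RefSeq accession gave 24375 of 41174 probes their current symbol, and the remaining 16799 were called as in the file. Levels were log2 of the deposited processed intensity minus log2 of the array's 75th percentile. A probe counted as detected on an array when 0.5 or more of its spots carried the scanner's flag, and a gene was represented by its brightest probe on average. The test was limma 3.58.1 under R 4.3.3 (lmFit, eBayes, two-sided, mouse as a fixed block), with Benjamini-Hochberg adjustment over 19598 genes, or over 29093 probes for single probes. It was tested on simulated data. Kidneys were paired by the mouse number of the labels: between both kidneys of a mouse, deviations from the group means had r = 0.194 (495), 0.481 (485) and 0.271 (512), and the highest r with another mouse was 0.0183. P-values rest on the spread between these 3 animals and, through eBayes, on a variance borrowed from all genes tested (2 residual and 2.06 prior degrees of freedom). The number of arrays limits the precision.

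The 8 genes and all lists were chosen with earlier results of these data known, so their counts are not independent evidence. From each list the 3 called genes with the largest change were named, or the one with the smallest p, plus the 5 genes most like the 8. One gene of the T cell list is not reported by name here. The alternatives tried were other scalings and background corrections, other filters and probe rules, other blocks, an intensity trend, the deposited ratios, and leaving out single mice.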

Additional observations from a re-analysis of the deposited data

How the results depend on the processing

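All 116 values of single members under the alternatives were positive, 95 kept their side of the threshold, 18 lost a call and 3 gained one. The 3 gains were those of Gzma, with centring on the spike-in spots (adjusted p = 0.0173), with slide as the block and without mouse 512. The number of members called was 7 of 8 in the setting reported, 3 with normexp background correction and 3 of the 4 members left when a probe had to be above background on all 6 arrays; leaving out 1 mouse, or the contralateral kidney of mouse 512, gave between 0 and 8. The number of genes called was 6019, against 3049 when arrays were centred on spike-in spots and 2662 of 28468 genes in an unfiltered fit, and between 0 and 11034 when 1 mouse or that kidney was left out. The causes were not tested. Centring, background correction and the filter moved the balance of higher and lower calls: 3135 and 2884 as reported became 2561 and 5938 under median centring, 2413 and 636 under spike-in centring, 1992 and 2787 under normexp and 1760 and 902 in the unfiltered fit. The median log2 change of all genes, -0.01 as reported, was -0.32, 0.34, -0.18 and -0.23 in these settings, so changes are relative to that shift. The paired fit was compared with 1 that had no replicate block, which called 7 members and 5538 genes and changed no member's call. Signal near background in contralateral kidneys limits the values of Gzma, Gzmb, Gzmk, Prf1 and Klrk1.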
